A study of Mus musculus with 6 samples.

Results

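The regions described here were the peaks of DBD-V5, the zinc finger DNA-binding domain of KLF3 expressed without the rest of the protein, in chromatin immunoprecipitation and sequencing (ChIP-seq). A region was a member when the peak lists of both DBD replicates held a peak there, and 4955 regions met that rule. The table of all merged peaks of the study held 22188 regions, so DBD peaks made up 22.3% of it. The same cells, murine embryonic fibroblasts (MEFs) from Klf3-/- mice, were used for 3 constructs carried by an MSCV retrovirus, which were full-length KLF3, ΔDL with an exchange in the motif that contacts the corepressor CtBP, and DBD, which kept the putative nuclear localization signal and the fingers. Every group therefore lacked endogenous KLF3, carried a V5 tag on a glycine–serine linker and was precipitated with anti-V5. Each construct was studied in a stable line grown from a single puromycin-selected clone, so construct and clone cannot be told apart. ChIP was run in duplicate with a paired input for each construct, and the input libraries entered these data only through peak calling. The peak scores stepped in units of 1 tag, and from that step the DBD immunoprecipitates held 7.81 M and 8.38 M tags, against 1.77 M to 18.1 M in the ΔDL and KLF3 libraries. These are the tags that peak calling counted, 16.0 M for both DBD replicates together per the file header. They are fewer than the mapped reads that the study lists.

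KLF3 belongs to the Krüppel-like factors, which bind CACCC boxes and related GC-rich elements through zinc fingers near the carboxy terminus. Its amino-terminal part recruits CtBP, a corepressor, and in many cells the sites of this family lie at promoters and enhancers. A peak of the DBD construct over its input marks where the anti-V5 precipitate of cells with the fingers alone was enriched. No precipitate from cells without a V5 construct was among the samples. Binding by the fingers therefore cannot be told apart from background of the precipitation.

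The gene that was deleted and then reintroduced was examined first. The library labelled DBD replicate 1 had 5 peaks on Klf3, all of them on coding exons, and DBD replicate 2 had 0 peaks there. The 5 peaks held 16 to 26 tags each, and 2 of them lay on exon 3, which encodes residues 20 to 181 of KLF3 in GENCODE, in the amino-terminal domain that DBD lacks by its description. The library thus went against its label at this exon. No such peak reached the merged DBD list, since replicate 2 lacked them. The ΔDL lists held 2 and 6 peaks on coding exons of Klf3 and the KLF3 lists 5 and 4. Peak height, the tags within 400 bp of a centre scaled to 100 M and pooled over both replicates by the authors, was 72.0 for DBD at the Klf3 promoter and 62.2 in intron 1, but 199 to 252 on exons 3 to 6. The part of this signal in the results was not tested. Values of replicate 2 alone are given for the shares by region, repeat class and match, for G+C, conservation and distance, and for tags, whereas heights pool both replicates.

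The central 100 bases of a few members show the kinds of DNA that the list held. The first set shows peaks among the highest 15 that held words of the CACCC type. It is a selection, since other high peaks with a match, such as the one upstream of Grap, are not shown. All peaks of the set also held the CTCF-type word CANNAGNNGGC, described under other observations, which the Grap peak did not. Capitals mark ACACCC or ACGCCC, and where they occur also the words CCACCC or CCGCCC, on either strand. The sequences are the plus strand of mm9. They lie at chr2:25148514-25148613 in the last intron of Grin1, chr15:98886930-98887029 in intron 3 of Prph, chr1:134184796-134184895 upstream of Klhdc8a and chr3:104861894-104861993 upstream of Cttnbp2nl.
Grin1 intron: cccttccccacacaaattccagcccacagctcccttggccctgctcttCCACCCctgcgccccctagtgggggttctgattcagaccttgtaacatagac
Prph intron: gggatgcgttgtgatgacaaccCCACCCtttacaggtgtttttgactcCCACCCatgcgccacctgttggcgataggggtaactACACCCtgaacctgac
Klhdc8a upstream: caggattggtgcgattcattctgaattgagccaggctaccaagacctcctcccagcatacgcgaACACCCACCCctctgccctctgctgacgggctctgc
Cttnbp2nl upstream: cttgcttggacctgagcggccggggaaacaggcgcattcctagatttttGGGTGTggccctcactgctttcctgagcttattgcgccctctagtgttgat

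The second set shows members at the A and T rich end of the list, without such a word. Their G+C over these 100 bases was 26%, 15% and 18%, against a median of 34% for the list. Here capitals mark runs of 8 or more bases that were all A or T. The sites are chr11:54436084-54436183 in intron 4 of Rapgef6, the highest intronic peak without a match, chr16:69175335-69175434 in an AT-rich stretch far from Speer2, and chr8:100258646-100258745 in a simple repeat far from Cdh8.
Rapgef6 intron: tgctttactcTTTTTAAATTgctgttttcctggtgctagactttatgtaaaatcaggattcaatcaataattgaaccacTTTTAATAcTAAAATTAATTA
Speer2 distal: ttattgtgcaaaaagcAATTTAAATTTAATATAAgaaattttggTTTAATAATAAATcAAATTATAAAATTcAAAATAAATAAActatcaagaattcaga
Cdh8 distal: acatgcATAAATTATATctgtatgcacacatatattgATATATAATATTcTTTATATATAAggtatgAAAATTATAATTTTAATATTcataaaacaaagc

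The third set shows how unlike the few promoter members were, with CACCC-type words in capitals again. Mcart1 (chr4:45421803-45421902) had the highest promoter peak. Lmna (chr3:88297611-88297710) encodes the nuclear lamins A and C. Olfr103 (chr17:37474443-37474542), an olfactory receptor gene, held no match, and in its line capitals mark a run of A and T.
Mcart1 promoter: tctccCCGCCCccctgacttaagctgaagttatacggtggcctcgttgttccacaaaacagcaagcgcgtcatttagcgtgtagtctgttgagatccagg
Lmna promoter: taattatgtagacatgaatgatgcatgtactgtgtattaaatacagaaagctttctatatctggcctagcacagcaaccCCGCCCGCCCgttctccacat
Olfr103 promoter: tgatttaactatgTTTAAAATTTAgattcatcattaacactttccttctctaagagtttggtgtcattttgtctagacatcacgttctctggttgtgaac

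Replicate 1 listed 9156 peaks and replicate 2 listed 8105. The 4955 shared peaks were 54.1% of the first list and 61.1% of the second, so 4201 and 3150 peaks were seen in 1 replicate alone. Most peaks were shallow. The median member held 12 tags in replicate 1 and 11 in replicate 2, and 37.4% and 46.4% of members held 10 tags or fewer. The lowest tag counts were 7 and 8, which sit at the lower end of what peak calling accepted. The peak scores of the replicates lay within 2-fold of each other at 98.6% of members, and their rank correlation over the 4955 members was 0.63, as a description only, since the peaks share the same 2 libraries. Peaks seen in replicate 2 alone differed from the shared ones, with 5.17% at promoters and 14.9% holding a CACCC-type match, against 1.29% and 7.47% of the shared peaks in the same list. In replicate 1 the corresponding figures were 1.95% and 8.71% alone, against 1.29% and 7.27% shared.

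**Figure D1:**
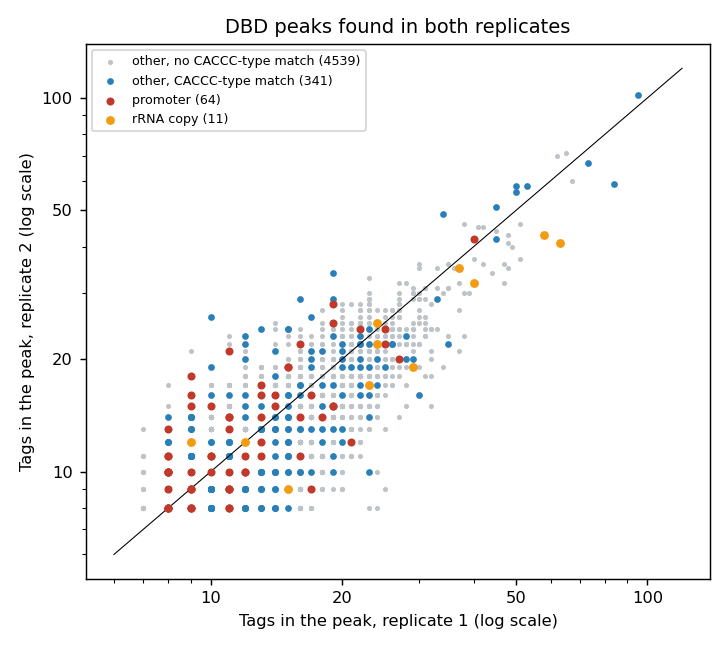
Tags in each of the 4955 DBD peaks in replicate 1 (horizontal, log scale) and replicate 2 (vertical, log scale), with equal counts on the line and colours for promoters (64), rRNA copies (11) and other peaks with or without a CACCC-type match. Most points lie below 20 tags in each replicate, promoter peaks reach 40 and 42 tags at most, and the Grin1 intron peak stands alone at 95 and 102.

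Heights ran from 65.3 to 1152 with a median of 150 and quartiles of 125 and 184. Only 314 members (6.34%) reached 250, and 14 reached 500. The 2 lowest members, in a LINE near 1700019E08Rik and far from Irs1, had heights of 65.8 and 65.3 and held 8 or 9 tags in each replicate. Heights carry no replicate error, because the authors' tag columns combine both replicates.

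The highest peak (chr2:25148364-25148764) lay in the last intron of Grin1, which encodes an NMDA receptor subunit, and overlapped the non-coding transcript E130003G02Rik. It held 95 and 102 tags in the replicates and a height of 1152, against 1060 for KLF3 and 1399 for ΔDL at the same place. It was thus as high in DBD as in the full-length protein, and the replicates were nearly equal. The peak in intron 3 of Prph, which encodes the neuronal intermediate filament peripherin, held 53 and 58 tags, a height of 904, and 3 CACCC-type words in its central 100 bp. Its height was 1252 for KLF3 and 1510 for ΔDL. An intergenic peak at -15785 bp from the TSS of Gtpbp4 (chr13:9010843-9011243; negative distances are upstream) held 62 and 70 tags and a height of 885, with 657 for KLF3 and 729 for ΔDL. No peak of the other 4 replicate lists overlapped it, although both heights there were above the median of the members. The peak upstream of Grap, which encodes an adaptor protein, held 73 and 67 tags and a height of 879.

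The other members of the highest 15 differed in base composition and annotation. Klhdc8a (50 and 56 tags), S100a14 (50 and 58), Cttnbp2nl (34 and 49) and Map3k6 (45 and 51), a kinase gene whose peak lay in a CpG island of intron 22, had G+C contents of 49.4% to 61.8% and each held a CACCC-type match. Their KLF3 heights were 1399, 1218, 1128 and 792, all above their DBD heights of 734, 699, 617 and 588. Rapgef6 (65 and 71 tags), Gm3852 (67 and 60), Arap2 (84 and 59, in an RMER1C repeat) and a site 1077168 bp from Fam181b (41 and 45, in an MTD repeat) had G+C contents of 35.7% to 43.4%. At these 4 sites the KLF3 height, 380 to 516, was below that of DBD, 498 to 739, and the ΔDL height, 734 to 1136, was above it. Copies of ribosomal RNA sequence were also among them. The peaks in intron 1 of Filip1l (58 and 43 tags) and far upstream of Pxmp3 (63 and 41) were annotated to large-subunit rRNA and had heights of 787 and 781. The remaining peak of the 15 lay on the last exon of Lars2 nearest Limd1, with 51 and 46 tags and a height of 609.

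Most members were intergenic or intronic. By the deposited annotation 2991 (60.4%, 95% Wilson interval 59.0 to 61.7) were intergenic and 1753 (35.4%, 34.1 to 36.7) intronic. Promoters held 64 (1.29%, 1.01 to 1.65), transcription termination sites 51, 3′ UTRs 50, exons 42 and 5′ UTRs 2. The replicate lists gave 58.8% and 57.9% intergenic and 1.59% and 2.80% promoter peaks. Intervals of this kind cover counting error only. The median distance to the nearest transcription start site (TSS) was 77819 bp, with 74484 bp and 68568 bp in the replicates. Only 98 members centred within 1 kb of a TSS, and 2206 (44.5%) lay over 100 kb away, among them 181 beyond 1 Mb.

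Against GENCODE protein-coding genes, 17.5% of members lay within 10 kb of a TSS and 41.0% lay over 100 kb from any. The mm9 sequence as a whole, sampled every 1 kb, gave 20.7% and 36.04%. The members were thus somewhat further from start sites than the genome, by about 3 and 5 percentage points, and these shares have no replicate test. Density per chromosome ran from 1.35 peaks per Mb on chromosome 7 to 2.30 on chromosome 3 among the autosomes, with 1.90 on X and 0.44 on Y. The median member lay 166 kb from the next one, and 219 (4.42%) had another within 10 kb.

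The 64 promoter members were set apart from the rest in base composition. Their median G+C was 50.5% over 400 bp, against 38.2% for introns and 36.7% for intergenic members. A CACCC-type match lay in the central 100 bp of 30 of the 64 (46.9%), against 8.10% of intronic and 6.05% of intergenic members. The flanks of the same promoter peaks, 400 to 500 bp away, held a match in 23.4% of windows, against 10.6% and 9.16% at introns and intergenic sites. Promoter members were still shallow, with a median of 11 tags in each replicate and a median height of 176. Their centres were spread over the promoter, with 19 within 100 bp of the TSS and 21 more than 500 bp upstream of it. G+C ranged from 26.4% to 69.3%, with 33 promoters at 50% or more and 13 under 40%, so that both kinds of DNA were found among them.

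Mcart1, encoding a mitochondrial carrier protein, had the highest promoter peak with 40 and 42 tags and a height of 388, against 484 for KLF3 and 605 for ΔDL. Dst, which encodes the cytolinker dystonin, held 22 and 24 tags, at -640 bp from a TSS, and a height of 375 against 820 for KLF3. Cfl1, the gene of the actin-severing protein cofilin, held 19 and 25 tags at a centre 26 bp downstream of the TSS, and a height of 355 against 1067 for KLF3 and 1160 for ΔDL. At all 3 the DBD height was the lowest of the constructs. Slc25a23 (19 and 28 tags) and Ass1 (15 and 19), which encodes argininosuccinate synthase, likewise had KLF3 heights of 809 and 969 against 370 and 280 for DBD.

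Lmna held 11 and 21 tags and a height of 298, with 360 for KLF3 and 452 for ΔDL, and yet overlapped no peak of the other 4 replicate lists. Tdrd3 (25 and 22 tags), Olfr103 (27 and 20) and Tas2r119 (25 and 24), a bitter taste receptor gene, had DBD heights of 290, 271 and 265 that exceeded the KLF3 heights of 246, 172 and 214. Rdm1 (9 and 16 tags) completed the 10 highest. Of the 64 promoter members, 61 overlapped a peak in at least 1 KLF3 replicate and 49 in both. Among all members, 83.2% overlapped the list of KLF3 replicate 1 and 51.99% that of replicate 2. Among all 22188 peaks of the table these shares were 80.1% and 66.7%, with the merged KLF3 peaks themselves counted. Overlap with at least 1 list or with both was not counted over all members.

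DNA under the members was rich in A and T. The median G+C over 400 bp was 37.7%, and it was 37.2% and 37.7% when the same window was laid on the peaks of replicates 1 and 2. The mm9 windows of that length had a median of 41.6%. In 1783 members (35.98%) G+C was under 35%, and in 210 (4.24%) it was 50% or more. G+C fell with distance from the nearest TSS, from a median of 48.3% within 1 kb of it to 38.9% at 10 to 100 kb and 33.2% beyond 1 Mb. It showed little relation to height (rank correlation -0.04 over 4955 members, as a description).

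The low G+C was concentrated at the centre. From 1 kb to 300 bp away the mean stayed between 40.0% and 40.5%, and it dropped to 32.9% in the 50 bp after the centre. In bins of 10 bp the minimum lay 10 to 20 bp to the right of the centre on the plus strand, at 29.99% in the merged list, 30.7% in replicate 1 and 31.6% in replicate 2. The trough was narrow, since only 30 bp lay within 3 percentage points of the minimum. The merged ΔDL peaks had a trough in the same bin, at 35.1%, whereas in the merged KLF3 peaks the mean stayed between 51.8% and 53.8% throughout the central 200 bp. Both profiles are means over peaks and carry no test.

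**Figure D2:**
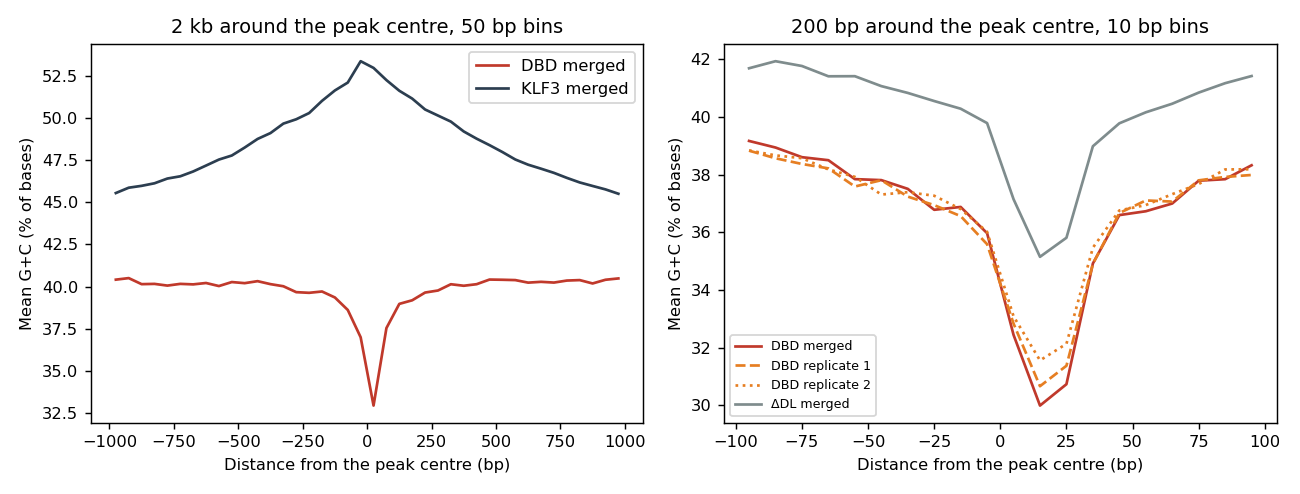
Mean G+C content (vertical, % of bases) by distance from the peak centre in bp, for DBD and KLF3 merged peaks in 50 bp bins (left) and for DBD merged, both DBD replicates and ΔDL merged peaks in 10 bp bins (right). DBD peaks dip to 29.99% in the bin from 10 to 20 bp, where both replicates lie at 30.7% and 31.6%, and KLF3 peaks rise towards the centre.

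Frequent words of 8 bases were also made of A and T. Among the 1220 words found in at least 50 members, the 50 with the largest ratio of members to flanks held at most 2 G or C in 49 cases. AAAATTTT was found in 2.30% of the central windows and 0.71% of flanks, and AATTTAAA in 4.32% and 1.51%. These words were picked by their ratio, which is therefore a description.

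Repeats were annotated under 1278 members (25.8%, interval 24.6 to 27.03), with 26.2% and 25.6% in the replicates. The share of mm9 in each repeat class was not computed, so enrichment or depletion against the genome cannot be read from these values. LINEs came first with 590 members (11.9%, and 11.5% of replicate 2), of which 568 (96.3%) were annotated to the L1 family of retrotransposons. The subfamilies with most members were Lx9 (47), Lx7 (43), L1_Mur3 (39) and Lx8 (37). LTR elements held 272 members (5.49%, and 5.06% of replicate 2), of which 135 were MaLR and 83 ERVK, and SINEs held 184 (3.71%, and 4.21% of replicate 2), with 55 B4, 54 B2 and 40 Alu elements. Low-complexity DNA held 86 (73 of them AT-rich), DNA transposons 70 and simple repeats 54. CpG islands held 6. The merged ΔDL list was close to these shares, with 9.93% in LINEs, 5.36% in LTR elements, 3.76% in SINEs and 0.60% in CpG islands, and the merged KLF3 list had 3.38%, 3.59%, 2.25% and 4.16%. Heights hardly differed between the main classes, with medians of 148 in LINEs, 143 in LTR elements and 143 in SINEs, against 147 for all repeats.

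**Figure D3:**
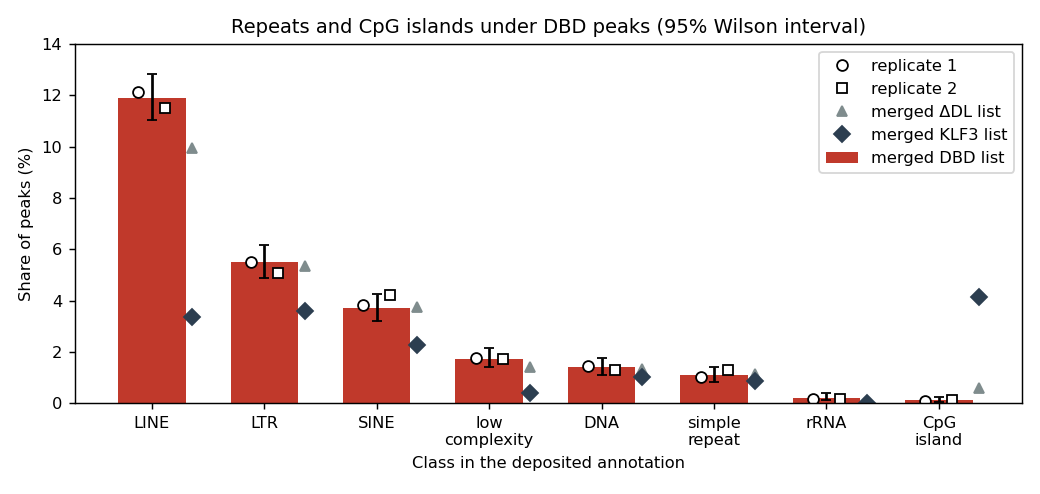
Share of peaks (vertical, %) in each class of the deposited annotation for the merged DBD list (bars with 95% Wilson intervals), each DBD replicate (circles and squares), the merged ΔDL list (triangles) and the merged KLF3 list (diamonds). LINEs hold 11.9% in DBD, 9.93% in ΔDL and 3.38% in KLF3, and CpG islands 0.12%, 0.60% and 4.16%.

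The highest LINE peaks were those in a HAL1 element near Cox8c (47 and 32 tags, height 495), in L1_Mur3 near Gm4951 (44 and 34, 452) and in Lx7 near Ncam2 (51 and 37, 449). In LTR elements the Fam181b site led, followed by sites near Gsdmc (37 and 21 tags) and Gm14374 (42 and 45), both with a height of 407. Among SINEs the highest was a B3 element near 1700016G22Rik with 31 and 26 tags and a height of 370, ahead of a B1_Mm element near Ccng2 (317) and an RSINE1 in intron 1 of Hprt (294). All of these overlapped peaks in each of the other 4 replicate lists, as did 91.8% of the highest 500 members. The simple repeats were headed by (TG)n near Slc7a13 (322), (TAGA)n near Chst9 (309) and (TA)n near Cdh8 (300), and AT-rich DNA by a site near 4930548K13Rik with 48 and 35 tags and a height of 405. Speer2 (340) and Sdpr (304) followed in that class. The only satellite member, MMSAT4 near Zkscan3, had a height of 141.

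The rRNA copies were few but high. There were 11, all annotated to large-subunit rRNA, with heights from 102 to 787 and a median of 251, above the median of all members. They also had more G+C, with a median of 54.1%, and 6 of the 11 held a CACCC-type match. No rRNA copy overlapped peaks in all of the other 4 lists, and 7 overlapped none. Reads from near-identical copies cannot be placed with certainty, so these positions are uncertain. CpG islands were headed by Map3k6, Rpp21 (30 and 16 tags, height 324) and Src (14 and 21, 272), a tyrosine kinase gene whose peak was 787 for KLF3.

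Conservation, the mean PhastCons value of a peak on a scale from 0 to 1, was low. Its median was 0.03, with 0.01 and 0.02 in the replicates, whose windows were shorter. It was 0 at 1162 members (23.5%) and at least 0.5 at 142 (2.87%). Exonic members had a median of 0.38, promoter members 0.115 and intergenic members 0.02. Among members with a height of at least 200, the 5 most conserved were an exon of Cdc42 (0.99), which encodes a small GTPase, a site near LOC627800 (0.97), one near 1700017N19Rik (0.91), an exon of the chaperone gene Hsp90b1 (0.87) and a site 414052 bp from Klf5 (0.83). None of these 5 held a CACCC-type match in its central 100 bp, and their heights ran from 204 to 350.

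In the merged list, the shorter CACCC-type words were less frequent at the members than around them, and the longer ones were more frequent. The central 100 bp held at least 1 of the words marked in the first set of sequences, on either strand, in 377 members (7.61%, interval 6.90 to 8.38), against 9.99% of flanking windows and 10.9% of mm9 windows. The peaks of replicate 1 gave 7.93% against 9.78% of their own flanks. Those of replicate 2 gave 10.35% against 10.43%, which were nearly equal. The longer words CCACACCC, CCACGCCC, CCCCACCC and CCCCGCCC were found in 131 members (2.64%, 2.23 to 3.13), against 2.05% of flanks and 2.05% of mm9, and in 2.66% and 4.63% of the replicate peaks. Windows of the merged KLF3 list held the shorter words in 57.9%. A match is only a run of letters, and its presence or absence says nothing of binding.

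The share moved with base composition. In members with G+C under 30% a match was found in 1.53% of 1436, against 1.58% of flanks and 1.56% of mm9 windows of the same G+C. From 30% to 40% the shares of members, 3.85% and 5.11%, also lay within 1 percentage point of flanks and genome. At 40 to 45% the share was 11.5% (interval 9.40 to 14.1) against 9.52% of flanks and 8.67% of mm9. At 55% or more, 74 of 119 members (62.2%, interval 53.2 to 70.4) held a match, against 37.7% of flanks and 33.4% of mm9. Outside promoters 57 of 94 such members (60.6%) held a match, with no flank or mm9 share counted for them alone. The bin has no upper limit, so members, flanks and mm9 windows may differ in G+C within it. Such GC-rich members were 2.40% of the list.

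**Figure D4:**
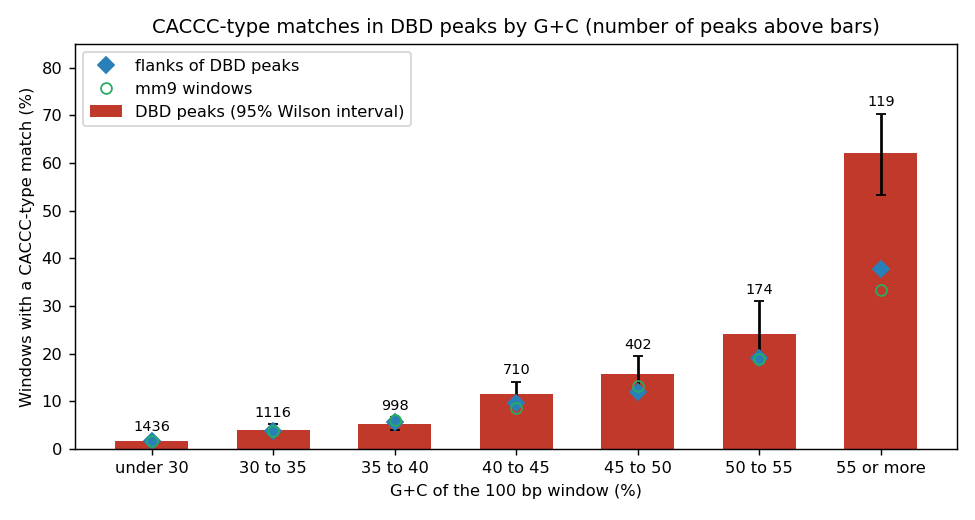
Share of 100 bp windows with a CACCC-type match (vertical, %) by their G+C content (horizontal, %), for DBD peaks (bars with 95% Wilson intervals and the number of peaks), flanks 400 to 500 bp away (diamonds) and mm9 windows (open circles). Up to 40% G+C the 3 lie together, and at 55% or more DBD peaks reach 62.2% against 37.7% and 33.4%.

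Ranked by height, the highest peaks held matches more often. They were found in 15 of the highest 50 members, 24 of the highest 100 and 69 of the highest 500 (13.8%), then in 7.67% at ranks 501 to 2000 and 6.53% in the rest. The ranks are by height. Among the upper 50% of members by peak score the share was 7.43%, against 7.61% of all. That cut is much wider than the highest 500, so it cannot show whether matches also rise at the top by score. Median G+C over the same ranks by height ran 40.8%, 38.5%, 37.2%, 37.2% and 37.7%. The 377 members with a match had a median height of 160 against 149 without, with overlapping quartile ranges of 130 to 197 and 125 to 184. The members with most matches in 400 bp included N4bp2 (11 matches, in a CpG island of intron 1), Pop5 (9), and the promoters of Agtpbp1 (9) and Cchcr1 (8). Their DBD heights were 130 to 251, and the KLF3 heights of both promoters were 622 and 798 against 194 and 142 for DBD.

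Words of other factors were searched in the same windows. The AP-1 words TGACTCA and TGAGTCA were found in 1.47% of members, 1.58% of flanks and 1.51% of mm9, the RUNX word TGTGGTT in 1.90%, 2.36% and 2.32%, and the TEAD word GGAATG in 4.097%, 5.37% and 5.43%. The ETS word CCGGAAG was found in 6 members (0.12%) against 0.31% of flanks, and CCAAT in 15.8% against 14.9%. The largest ratio of members to flanks among these words was 1.06, for CCAAT.

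Whether the DBD lists differed from those of the other constructs was tested on the 6 replicate lists, as 2 DBD lists against 2 KLF3 and 2 ΔDL lists. Promoters held 1.59% and 2.80% of DBD peaks (2.20% ± 0.85, SD, n = 2) and 7.37% to 31.0% of the others (18.6% ± 9.81, n = 4). The share over 100 kb from a TSS was 43.0% ± 1.12 in DBD and 24.9% ± 10.1 in the others, and the repeat share was 25.9% ± 0.37 and 17.5% ± 5.28. Median G+C, over the deposited peak widths of about 130 bp, was 34.5% ± 0.21 and 44.9% ± 7.37, and CACCC-type matches were found in 9.14% ± 1.71 and 35.9% ± 17.2 of peaks. In each of the 5 measures both DBD lists lay outside the range of the other 4, and the exact two-sided permutation test gave p = 0.133 (0.133 after Benjamini-Hochberg adjustment over the 5 tests). That is the smallest p this design allows, so no difference could pass a threshold of 0.05. The spread within the DBD pair was small beside the differences, but each construct stood on 1 clone.

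**Figure D5:**
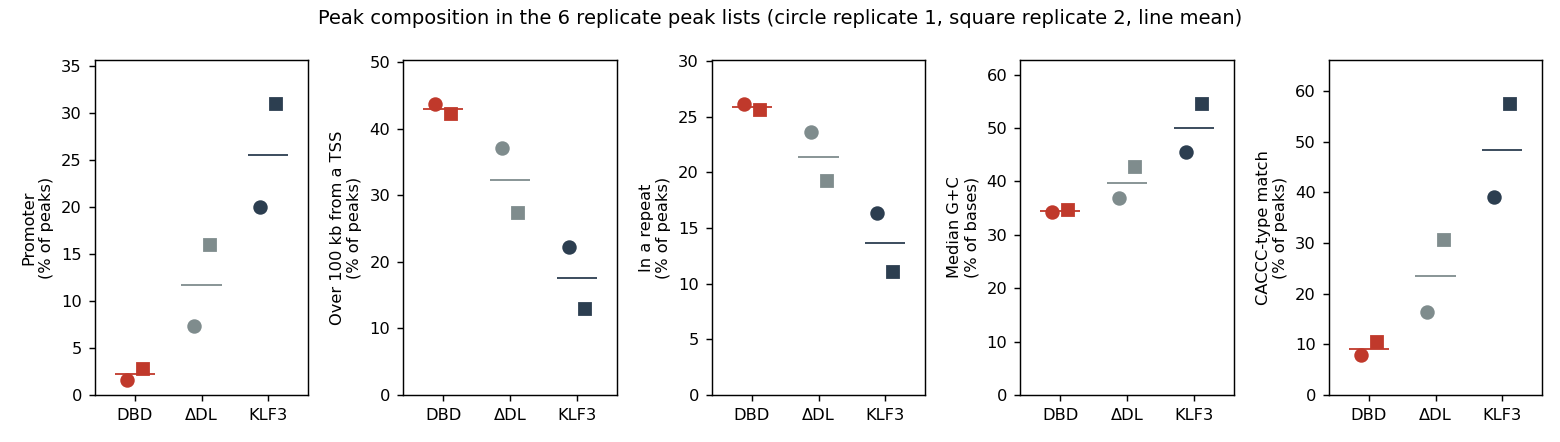
Each of 5 measures of peak composition (vertical, %) in the replicate peak lists of DBD, ΔDL and KLF3 (circle replicate 1, square replicate 2, line mean). In all 5 panels both DBD points lie beyond the 4 others, with ΔDL between DBD and KLF3.

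Most members were not particular to DBD. A ΔDL peak overlapped 93.1% of members in replicate 1 of that construct and 95.1% in replicate 2. For KLF3 the shares were 83.2% in replicate 1 and 51.99% in replicate 2. Of all 22188 peaks in the table, 57.4% and 82.8% overlapped the ΔDL lists and 80.1% and 66.7% the KLF3 lists. That table includes the merged ΔDL and KLF3 peaks, which lie in their own lists by rule, so its shares are not a background rate. Peaks in all of the other 4 lists overlapped 2340 members (47.2%), and 48 members (0.97%) overlapped none. Over all peaks in the table the share in all 4 lists was 22.05%. The share in none, 0.22%, can only come from DBD peaks, since every other peak lies in its own lists. Members in all 4 lists were deeper, with a median of 14 and 13 tags against 9 and 9 for those in none, 1 or 2. Their median G+C was 38.4%, against 36.4% to 40.3% in the other classes. In the table of all peaks, 463 members (9.34%) were listed for DBD alone, 2099 (42.4%) for ΔDL and DBD, 59 for KLF3 and DBD and 2334 (47.1%) for all constructs.

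Peak heights at the members were of the same order in all constructs. The median KLF3 height was 108 and the median ΔDL height 224, against 150 for DBD. KLF3 was higher than DBD at 6.78% of members and ΔDL at 95.8%, on values scaled to an equal number of tags and with replicates pooled. Members had to be called in both DBD replicates, so the rule favours DBD in this comparison and in those of single members above, and nothing follows from these shares for other KLF3 sites. Members with a CACCC-type match had a median KLF3 height of 129 and those without 107. The 48 members in no other list included Gtpbp4, the rRNA copy near Pxmp3, the Lars2 site and an rRNA copy in an intron near Ccdc3 (40 and 32 tags). At these 4, which were among the highest of the 48, the pooled heights of KLF3 and ΔDL were 239 to 729. These were above the medians of 108 and 224, so tags were present there without a peak call. Over all 48 the median heights were below those medians, at 73.5 for KLF3 and 123 for ΔDL.

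Nearby genes were spread widely. The deposited annotation named 3248 genes as nearest, 2369 of them for 1 member only, and 93 genes with 5 or more members took 12.5% of the list. The 10 genes named most often were Diap2, which encodes a formin, with 13 members, the cadherin gene Cdh8, Csmd3 and the protocadherin gene Pcdh9 with 12 each, Dsel, Fam181b, the latrophilin gene Lphn3, Lrrc4c and the phosphatase gene Ptprd with 11 each, and Cntnap5a with 10, a number shared by Gm2516. These members were all intergenic or intronic, 4899 bp to 1986822 bp from the TSS. Median G+C at these genes was 29.9% to 38.5%. Cadherin and protocadherin genes were the nearest GENCODE genes of 122 members (2.46%) and of 1.66% of mm9 positions, and olfactory receptor genes of 61 members (1.23%) and 1.30% of positions. Vomeronasal receptor genes were nearest to 17 members (0.34%) and 1.05% of positions.

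A DBD peak lay within 10 kb of a TSS at 4.47% of 22238 GENCODE protein-coding genes, and in the promoter, from 1000 bp upstream to 100 bp downstream, at 0.472%. Lists of genes were read against these shares. Of 26 KLF and Sp genes only Sp8 (9 and 8 tags, at -742 bp, no match) had a peak within 10 kb. None of 10 AP-1 genes and none of 5 RUNX genes did. Of 21 genes of the TEAD and Hippo pathway, which controls growth through YAP and TAZ, Tead1 (10 and 12 tags, in intron 1) and Lats1 (12 and 11 tags, in an intron of the neighbouring BC020402) had such a peak, and of 15 genes of the CtBP corepressor complex Rcor1 (7 and 8 tags) and Ehmt1 (10 and 9) had. These 5 peaks held 7 to 12 tags in each replicate.

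Of 36 genes of fibroblast matrix and cytoskeleton, 3 had a DBD peak within 10 kb. Col1a2, a collagen I gene, held 10 and 8 tags in intron 1 with 2 matches, and its height of 218 stood against 519 for KLF3 and 709 for ΔDL. Timp3, which encodes an inhibitor of metalloproteinases, held 28 and 20 tags at -4696 bp, in an intron of another transcript, also with 2 matches and a height of 288 against 186 for KLF3. The third was Lmna, described above. Of 12 genes whose KLF3 sites the study displayed, a list that was chosen on these samples, Grin1, Lmna and Zfp36l2 had a DBD peak within 10 kb. The Zfp36l2 peak held 9 and 11 tags, with a height of 159 against 380 for KLF3. With so few genes per list, these counts are descriptions.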

How the data were processed

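ChIP-seq peak lists of DBD, with those of KLF3 and ΔDL for comparison, were taken as deposited. Single-end reads of 50 bp were checked by the authors with FastQC 0.10.1 and mapped on mm9 (Bowtie2 2.0.0, SAMtools 0.1.18), and they called peaks per replicate with HOMER 4.1 against the paired input, at 5-fold enrichment over input and over local background and an FDR of 0.001. Replicate peaks that literally overlapped were merged and re-annotated by them over 400 bp. The deposited peak score is a signal of tags normalized by the authors to 100 M tags. Tag columns of the merged tables are deposited as log2 values of both replicates combined, where 1 DBD tag is worth 6.23, and were read back to a linear signal here. Per the file headers G+C is a fraction and the conservation score is a mean PhastCons value. Input libraries entered only through peak calling.

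Whole tags per peak were recovered from the score steps. Sequence windows, word matches and distances to GENCODE vM1 start sites were computed from mm9 with pysam 0.24.0 and scipy 1.17.1 under Python 3.11.15, next to pandas 2.3.3 and numpy 2.4.6, and the procedures were tested on simulated data. Shares carry 95% Wilson intervals, which cover counting error only. Replicate lists were compared by an exact two-sided permutation test. Whether the replicates came from separate cultures is not given in the sources used here, so their spread may be technical. Overlap meant at least 1 bp. Named peaks were the 15 highest, the 10 highest at promoters, the 3 highest per repeat class and in CpG islands, the 5 most conserved with a height of at least 200, the 5 with most matches, the 3 lowest, the 10 genes with most peaks and every list gene with a peak within 10 kb. The members and lists were chosen with earlier results of these data known. Other peaks named (rRNA copies, peaks on Klf3 and in no other list) were chosen after their values were seen, as were the words of the CTCF type. Some peaks that this rule names are not reported here.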

Additional observations from a re-analysis of the deposited data

Results flagged for a closer look

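The library labelled DBD replicate 1 had 5 peaks on coding exons of Klf3, with 17 and 16 tags on exon 3, 20 on exon 4, 26 on exon 5 and 20 on exon 6. They stand out because they lie outside the merged DBD list and exceed the paired input by the authors' criterion. Replicate 2 had 0 peaks there. The lowest peak anywhere in the replicate 2 list held 8 tags. Calling also required enrichment over input and local background, so the tags of replicate 2 at Klf3 are not known. Exon 3 encodes residues 20 to 181, in the amino-terminal domain that DBD lacks by its description. At the Klf3 promoter and intron 1 neither DBD replicate had a peak, whereas both KLF3 and both ΔDL lists did. Where the exonic tags came from was not tested.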

How the results depend on the processing

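Of 28 alternative settings of the 8 values of the DBD list, 15 stayed within the replicate spread or, for the number of peaks, within 1.5 times, and 13 moved further. The 20 alternatives of the 5 comparisons with KLF3 and ΔDL kept their direction. Their exact permutation p, 0.133 to 0.4, was each time the smallest the design allows, so it says nothing about stability. Replicate 1 and replicate 2 alone, with 1 replicate left out each time, gave promoter shares of 1.59% and 2.80%, intergenic shares of 58.8% and 57.9%, median G+C of 37.2% and 37.7%, median conservation of 0.01 and 0.02, median TSS distances of 74484 and 68568 bp and match shares of 7.93% and 10.4%. The promoter share of replicate 2 was thus over 1.5 times the merged 1.29%. The upper 50% of peaks by score had a median G+C of 37.2%, and the upper 50% of each list shared 2752 peaks instead of 4955. A 200 bp window raised the match share to 14.4%, and words of 8 bases lowered it to 2.64%. Members in at most 1 other replicate list, a setting chosen after seeing the data, had a median G+C of 36.9%. The cause of these shifts was not tested, other than the wider window and the longer words, which admit more and fewer matches by construction. Other settings chosen after seeing the data, an overlap of at least 100 bp (4462 shared peaks) and leaving out rRNA copies (match share 7.504%), changed little. An overlap of 200 bp could not be met, since no DBD replicate peak exceeded 130 bp, and the soft-masking alternative for repeats was not run, since the mm9 sequence used here is not masked. Depth limits the precision of single peaks, since the median member held 11 or 12 tags per replicate. No paired analysis was possible because the replicate lists of different constructs share only a number and each list gives 1 value per test.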

Other observations

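A word of the CTCF type, CANNAGNNGGC on either strand, was searched after the sequences of the highest peaks had been seen. CTCF is a zinc finger protein that organizes chromatin loops. The word was found in the central 100 bp of 5 of the highest 50 members, namely Grin1, Prph, Klhdc8a, Cttnbp2nl and Map3k6. It was found in 13 of the highest 500, 17 of the 1500 at ranks 501 to 2000 and 24 of the 2955 below, in all 54 members (1.09%), against 1.49% of flanks and 1.54% of mm9 windows. All 5 peaks also held a CACCC-type match and overlapped peaks in each of the other 4 replicate lists. Among the highest 50 members a match was found in 30% and that overlap in 88%. The word was chosen for these peaks, so the counts are a description.

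The G+C minimum of the members lay 10 to 20 bp to the right of the peak centre in the merged DBD list, in both DBD replicates and in the merged ΔDL list, on the plus strand of the genome. CACCC-type words of the merged KLF3 peaks were most frequent in the bin from 0 to 10 bp, with 1799 starting there, against 1697 in the bin before and 1685 in the bin after. In the DBD peaks 31 and 30 of these words started in the bins from 10 to 20 and 20 to 30 bp, 32 in the bin from 70 to 80 bp and 44 to 61 in each of the other bins within 100 bp of the centre.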
